A study of Mus musculus with 18 samples.

Results

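Complement and coagulation are paired cascades of plasma proteins, and the 44 genes described here encode their components: the initiators, proteases, cofactors, membrane-attack proteins, fibrin chains, plasminogen and inhibitors. They were chosen by name from the 21899 genes of the expression table as components of the cascades, by a rule with no threshold on their values, and all 44 were found. RNA was sequenced from liver, epididymal white adipose tissue (eWAT) and quadriceps muscle of mice on a control diet (CON) or a high-salt diet (HSD), with 3 libraries in each of the 6 groups. All mice were wild type C57BL/6 males, and the labels gave an age of 18 weeks for every group. HSD mice were fed the salt diet and drank saline for 12 weeks, while CON mice had chow and tap water. The sources name no transgene, deletion or second agent in any group. By the animal numbers in the library names, several mice gave more than 1 tissue, while the 3 libraries of any group came from different mice.

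Hepatocytes make most circulating complement and clotting proteins and secrete them into plasma. In complement, C1q on antibody or dying cells (the classical pathway), mannose-binding lectins on sugars (the lectin pathway) or spontaneous turnover of C3 (the alternative pathway) lead to cleavage of C3 and C5 and to a pore built from C6 to C9. In coagulation, tissue factor with factor VII, or the contact factors, start a chain of proteases that ends with thrombin cutting fibrinogen into fibrin, which factor XIII crosslinks and plasmin dissolves. Some components are also made outside the liver, among them C1q and the factor XIII A subunit by macrophages and tissue factor by stromal cells.

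The expression unit was FPKM, the number of fragments scaled to transcript length and to library size, and the libraries held 7628071 to 16637489 fragments on listed genes. Values below are given in the order of replicates 1, 2 and 3 of a group. Several libraries stood apart. HSD eWAT replicate 2 had a summed FPKM of 17779 over 10 markers of epididymal epithelium, against 1.05 to 11.1 in the other eWAT libraries, and its sum of 11 adipocyte markers was 3502 against at least 9428 in each control. CON liver replicate 2 had a sum of 4921 over 10 skeletal muscle markers, against 2.45 to 5.94 in the other liver libraries. Mitochondrially encoded genes took 60.8% of the fragments of CON liver replicate 1 and 15.4% to 44.4% of those of the other liver libraries. Hepatocyte markers were present in eWAT, and all 30 of them were above 0 in each control eWAT library, with sums of 161 to 456 FPKM against 18.3 to 30.5 in HSD eWAT.

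In control mice the members split by tissue. The mean was highest in liver for 33 members, in eWAT for 11 and in muscle for 0. The 3 liver libraries lay above all eWAT and muscle libraries for 31 members, and the 3 eWAT libraries lay above all others for 9. Of 42 members tested between control eWAT and liver by limma on log2(FPKM + 0.5), 36 were called at an adjusted p under 0.05 and at least 2-fold, 7 higher in eWAT and 29 lower, while 69.4% of all 12637 genes tested were called. Among all genes most calls went the other way, with 62.1% higher in eWAT and 7.26% lower. That split depends on scaling, since the median log2 difference over all genes was 1.36 on the deposited scale and -0.026 after median-ratio scaling (each library divided by its median ratio to the geometric mean library), where 5 members were called higher and 34 lower. Between muscle and liver 38 members were called, 1 higher and 37 lower in muscle, against 50.1% of all genes (35.1% higher, the other 1893 of 12637 genes lower). Between eWAT and muscle 31 members were called, all of them higher in eWAT, against 54.9% of all genes (46.9% higher and 7.98% lower), and 19 were called with median-ratio scaling. In whole tissue, fewer cells of a type and less RNA per cell cannot be told apart.

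To separate factors made in fat from liver RNA in the fat libraries, a liver share was computed for each eWAT and muscle library, as the median over 30 hepatocyte markers, none of them a member, of FPKM in the library relative to mean FPKM in control liver. The liver share was 0.734%, 1.20% and 0.440% in the control eWAT libraries, and 0.0994%, 0.0383% and 0.0474% in the HSD eWAT libraries. In muscle it was 0.00418% to 0.115% in CON and 0.0121% to 0.0863% in HSD. A member was counted above the liver share where its FPKM was over 3 times the level this share would give in each of the 3 control libraries, with a mean of at least 0.1 FPKM. In control eWAT 19 of the 44 members were above it, as were 94.5% of all genes detected in liver and 3.33% of the hepatocyte markers, 1 of 30. The other 25 members sat at 0.432% to 2.75% of their control liver mean, with a median of 1.01%, and the hepatocyte markers at 0.287% to 5.22%, with a median of 0.803%. The count is a description with no test. The 31 members called higher in control eWAT than in control muscle outnumber these 19, so they include members near the liver share. That share was larger in every control eWAT library than in any control muscle library.

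**Figure D1:**
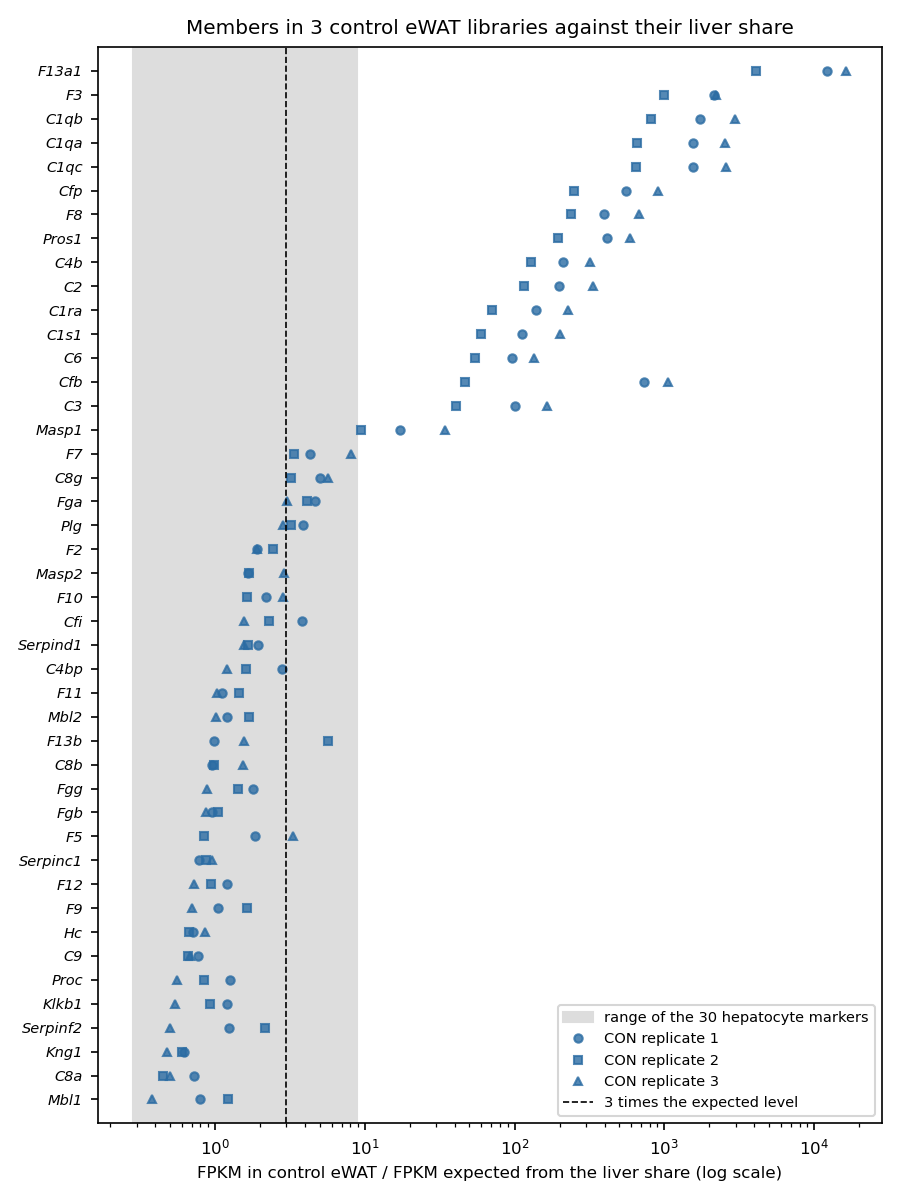
Each row is 1 of the 44 members and each point 1 of the 3 control eWAT libraries. The horizontal axis (log scale) is FPKM divided by the FPKM expected from the liver share, the grey band spans the 30 hepatocyte markers in the same libraries (0.285 to 8.90 times) and the dashed line is 3 times; 19 members lie right of the line in all 3 libraries, and *Fga*, *C8g* and *F7* are the closest to it.

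The members of the classical pathway stood far above the liver share in fat. *C1qa*, *C1qb* and *C1qc* encode the chains of C1q, the recognition molecule of the pathway. *C1qa* gave the only diet call among the members, in muscle, but it has no entry in the promoter table. Sequences upstream of the start site are shown for the other chains, *C1qb* and *C1qc*, which were not called with diet (GRCm38.p6, RefSeq, minus strand, chr4:136886201-136886450 and chr4:136892915-136893164, the 250 bases before the start, written along the gene's strand). Capitals mark matches on either strand to GAGGAAG, a core of the PU.1 motif, to GTTAAT, the core of the HNF1 motif, or to TTGCNNAA, the C/EBP motif. *C1qc* held the PU.1 core and *C1qb* held none of the 3.

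C1qb: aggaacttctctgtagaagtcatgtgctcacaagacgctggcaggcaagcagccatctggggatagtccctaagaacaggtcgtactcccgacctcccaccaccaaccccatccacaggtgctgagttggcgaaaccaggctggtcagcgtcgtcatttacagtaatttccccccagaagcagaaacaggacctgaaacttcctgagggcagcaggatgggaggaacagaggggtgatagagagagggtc

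C1qc: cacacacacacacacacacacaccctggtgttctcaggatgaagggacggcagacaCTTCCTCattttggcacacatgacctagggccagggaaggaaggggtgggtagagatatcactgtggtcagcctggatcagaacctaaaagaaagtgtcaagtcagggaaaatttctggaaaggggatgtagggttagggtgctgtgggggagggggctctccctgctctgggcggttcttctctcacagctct

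The 3 genes lie side by side on the minus strand of chromosome 4 in mm10, *C1qb* at 136880129 to 136886187, *C1qc* at 136889804 to 136893065 and *C1qa* at 136895917 to 136898803. These positions are from GENCODE gene models, and part of the *C1qc* window, which was set by the RefSeq start, lies inside them. *C1qa* stood at 144, 98.9 and 139 FPKM in control eWAT, 7.94, 15.9 and 13.7 in control liver and 12.6, 8.36 and 11.8 in control muscle. *C1qb* stood at 105, 80.2 and 107 FPKM in eWAT and *C1qc* at 58.3, 39.2 and 57.9. All 3 were higher in eWAT than in liver without overlap (log2 difference 3.33 ± 0.29 (SE), adjusted p = 4.89e-06 for *C1qa*). Between muscle and liver their log2 differences were -0.15, 0.058 and 0.029 for *C1qa*, *C1qb* and *C1qc*, with adjusted p of 0.651 or more.

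*C1ra* and *C1s1* encode the proteases that C1q activates and lie next to each other on chromosome 6. *C1ra* was at 37.4, 31.3 and 36.4 FPKM in control eWAT and 26.6, 45.2 and 38.2 in control liver (log2 difference -0.037 ± 0.21 (SE), adjusted p = 0.874). *C1s1* was at 68.0, 59.8 and 73.2 FPKM in eWAT and 91.4, 66.3 and 90.6 in liver. The groups overlapped for both proteases, and both were called lower in eWAT after median-ratio scaling (log2 differences -1.67 and -1.94). *C4b*, the substrate of C1s, stood at 222, 220.0 and 201 FPKM in eWAT and 150.3, 127 and 150.02 in liver, so that every eWAT library was above every liver library, but the difference missed the threshold (log2 difference 0.59 ± 0.30 (SE), adjusted p = 0.0924) and turned to -1.07 with median-ratio scaling. *C2*, which with C4 forms the C3-cleaving enzyme, was low in both, at 3.14, 2.98 and 3.15 FPKM in eWAT and 3.11, 1.91 and 1.44 in liver, and its sign also turned with that scaling (-0.89). Of the exon bases of *C2*, 42.8% are shared with an overlapping gene model on the same strand, *Gm20547*, which was listed at 0 in all 18 libraries.

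The lectin pathway looked different. *Mbl1* and *Mbl2*, the mannose-binding lectins, were near the liver share in fat. *Mbl1* was at 27.6, 91.4 and 85.8 FPKM in control liver and 0.397, 1.01 and 0.115 in control eWAT. *Mbl2* was at 55.1, 151 and 126 FPKM in liver and 0.974, 2.24 and 0.497 in eWAT. Both stood within 0.382 to 1.68 times their liver share, with eWAT replicate 2, the library with the largest share, the highest. *Masp1*, a protease bound to these lectins, was at 1.20, 1.08 and 1.44 FPKM in control eWAT, 9.40 to 34.3 times its liver share, and at 8.55, 9.48 and 10.6 in liver. Its partner *Masp2* was at 0.226, 0.379 and 0.236 FPKM in eWAT, near the liver share, and 54.9% of its exon bases lie opposite *Tardbp*. So 1 of the 4 lectin pathway genes was counted above the liver share in fat.

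*C3*, the central component, was abundant in liver and fat: 199.7, 131 and 194 FPKM in control eWAT and 217, 299 and 289 in control liver, with all 3 liver libraries above all eWAT libraries. The difference was not called (log2 difference -0.63 ± 0.28 (SE), adjusted p = 0.0586), except with median-ratio scaling (-2.28) or without mitochondrially encoded genes (-1.39). *Cfp*, which encodes properdin, the stabiliser of the alternative C3 convertase, was higher in eWAT than in liver in every library, at 34.1, 25.2 and 33.3 against 8.76, 7.83 and 8.56 FPKM (log2 difference 1.81 ± 0.20 (SE), adjusted p = 2.15e-05), and its difference was 0.20 with median-ratio scaling. *Cfb*, the protease of that convertase, was at 0.221 FPKM or less in every library, and its level is uncertain because 79.5% of its exon bases are shared with *Gm20547*. It entered the counts of members highest in eWAT and above the liver share on only 10, 1 and 9 fragments in control eWAT, against 1, 0 and 2 in control liver.

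The terminal pathway genes were mostly at the liver share in fat. The pore protein *C6* and *C8g*, a chain of C8, were counted above it. *C6* was at 31.4, 29.2 and 26.5 FPKM in control eWAT against 52.8, 42.6 and 37.9 in control liver. *C8g* was at 4.804, 5.08 and 3.26 FPKM in eWAT, 3.23 to 5.68 times its liver share, against 47.1, 178 and 167 in liver. *Hc*, which encodes C5, was at 0.627, 0.969 and 0.451 FPKM in eWAT and 164, 96.8 and 98.4 in liver. The eWAT values of *Hc* were all below 1 FPKM. *C8a* and *C8b*, neighbours on chromosome 4, encode the other chains of C8. *C8a* was at 0.875, 0.889 and 0.364 FPKM in eWAT and 158, 183 and 151 in liver. *C8b* was at 0.294, 0.493 and 0.283 FPKM in eWAT and 17.6, 58.0 and 49.7 in liver. *C9*, the pore-forming protein, was at 0.976, 1.37 and 0.517 FPKM in eWAT and 107, 193 and 215 in liver. The complement inhibitors *Cfi*, a protease that inactivates C3b, and *C4bp*, its cofactor, were both near the liver share in control eWAT. *Cfi* was at 2.30, 2.29 and 0.569 FPKM in eWAT and 38.0, 122 and 88.4 in liver. *C4bp* was at 0.556, 0.520 and 0.143 FPKM in eWAT and 18.8, 32.0 and 30.1 in liver. Both had their lowest eWAT value in replicate 3, the control with the smallest liver share.

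Among the clotting factors, tissue factor stood out in fat. *F3*, the cell-surface trigger of clotting, was at 33.0, 25.1 and 20.6 FPKM in control eWAT, 2.44, 2.62 and 1.25 in control liver and 3.46, 3.04 and 2.72 in control muscle (log2 difference 3.38 ± 0.25 (SE), adjusted p = 1.81e-06 for eWAT against liver). All eWAT libraries were above all others, and *F3* stood at 990.3 to 2229 times its liver share. Its partner *F7* was at 0.839, 1.06 and 0.938 FPKM in eWAT and 28.1, 20.6 and 30.5 in liver, 3.36 to 8.08 times its liver share and thus just past the limit. *F10*, whose gene follows *F7* on chromosome 8, was at 1.44, 1.76 and 1.12 FPKM in eWAT and 51.5, 119 and 100.02 in liver, and was counted near the liver share.

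The 4 genes of the contact system were near the liver share in control fat. *Kng1*, the kininogen that releases bradykinin, was the member with the highest control liver mean, 323, 805 and 815 FPKM, and was at 2.94, 4.71 and 1.37 in control eWAT. Its paralog *Kng2* stood at 64.5 to 100.2 FPKM in liver, so the split of reads between the pair is uncertain. *F12*, which starts the contact pathway, was at 90.3, 162 and 149.9 FPKM in liver and 1.18, 1.51 and 0.429 in eWAT. *Klkb1*, which encodes prekallikrein, and *F11*, which encodes factor XI, are neighbours on chromosome 8. *Klkb1* was at 25.3, 37.7 and 38.7 FPKM in liver and 0.297, 0.377 and 0.0802 in eWAT. *F11* was at 19.6, 25.3 and 26.1 FPKM in liver and 0.195, 0.412 and 0.107 in eWAT. The highest eWAT value of the 4 was the 4.71 FPKM of *Kng1* in CON replicate 2. Of the exon bases of *Klkb1*, 43.2% are shared with *Gm45753*, which was listed at 0.

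Of the genes of the common and intrinsic pathway, *F2*, *F5* and *F9* were near the liver share in control fat. *F2*, prothrombin, was at 41.2, 134 and 122 FPKM in control liver and 1.38, 2.89 and 0.824 in control eWAT. *F5*, the cofactor that speeds thrombin formation, was at 23.6, 44.2 and 37.8 FPKM in liver and 0.478, 0.355 and 0.510 in eWAT. *F9*, factor IX, was at 17.4, 43.6 and 46.4 FPKM in liver and 0.274, 0.700 and 0.110 in eWAT. All liver values of the 3 lay above 17 FPKM and all eWAT values below 3. *F8*, the cofactor of factor IX that is known from endothelial cells, was low everywhere but highest in eWAT, at 0.768, 0.753 and 0.789 FPKM against 0.437, 0.156 and 0.199 in liver and 0.137, 0.0767 and 0.190 in muscle. The eWAT libraries of *F8* lay above all others without overlap.

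Fibrin formation brought together genes of both kinds. *Fga*, *Fgb* and *Fgg*, the chains of fibrinogen, lie next to each other on chromosome 3 in mm10, between 83007724 and 83049863. The 250 bases before their start sites are shown because these genes were among the 4 with the most negative differences between HSD and control eWAT (GRCm38.p6, RefSeq, chr3:83025903-83026152, plus strand, chr3:83049864-83050113, minus strand, and chr3:83007474-83007723, plus strand, with the same use of capitals).

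Fga: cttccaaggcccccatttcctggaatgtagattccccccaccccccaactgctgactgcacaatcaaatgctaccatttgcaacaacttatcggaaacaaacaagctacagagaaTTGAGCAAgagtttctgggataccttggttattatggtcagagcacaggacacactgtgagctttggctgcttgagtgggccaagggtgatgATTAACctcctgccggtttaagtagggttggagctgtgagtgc

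Fgb: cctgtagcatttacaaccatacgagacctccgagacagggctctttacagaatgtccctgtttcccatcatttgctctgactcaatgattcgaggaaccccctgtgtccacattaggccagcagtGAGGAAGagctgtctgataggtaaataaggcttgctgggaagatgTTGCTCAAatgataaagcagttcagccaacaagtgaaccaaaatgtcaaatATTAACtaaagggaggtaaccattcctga

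Fgg: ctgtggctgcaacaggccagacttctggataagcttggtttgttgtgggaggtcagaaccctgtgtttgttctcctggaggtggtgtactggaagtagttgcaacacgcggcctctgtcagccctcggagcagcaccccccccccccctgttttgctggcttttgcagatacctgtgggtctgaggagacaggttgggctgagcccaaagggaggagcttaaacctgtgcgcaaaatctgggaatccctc

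*Fga* held an HNF1 core and a C/EBP match, *Fgb* held these and the PU.1 core, and *Fgg* held none of the 3. Across the 35 members with a promoter in the table, the HNF1 core was found in 9, the C/EBP motif in 8 and the PU.1 core in 3, and across all 32851 promoter windows of this length in 6.43%, 9.56% and 10.6%. The HNF1 core was in 6 of the 21 members near the liver share with a promoter and in 3 of the 14 above it.

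*Fgb* was at 167, 621 and 521 FPKM in control liver and 3.04, 5.51 and 1.67 in control eWAT, 0.872 to 1.05 times its liver share. *Fgg* was at 163, 566 and 403 FPKM in liver and 4.95, 6.46 and 1.46 in eWAT, 0.882 to 1.78 times the share. *Fga* was at 83.5, 204 and 165 FPKM in liver and 5.16, 7.50 and 2.02 in eWAT, 3.04 to 4.66 times, which put it just above the limit while its partner chains were below. *Plg*, just outside the limit at 2.86 to 3.89 times, encodes plasminogen, the precursor of the enzyme that dissolves fibrin, and was at 31.3, 66.2 and 49.2 FPKM in liver and 1.39, 1.88 and 0.615 in eWAT. *Cfi*, *F5* and *F13b* passed the limit in 1 control library each and were not counted. *F13a1*, the catalytic A subunit of factor XIII, had the largest difference of all members in favour of eWAT, at 28.4, 15.7 and 22.8 FPKM against 0.117, 0.587 and 0.243 in liver and 1.96, 1.65 and 1.74 in muscle (log2 difference 4.81 ± 0.25 (SE), adjusted p = 2.79e-07 for eWAT against liver). *F13b*, its carrier subunit, was the opposite, at 12.3, 14.5 and 14.3 FPKM in liver and 0.0985, 0.938 and 0.0950 in eWAT. The subunits of factor XIII were therefore found in different tissues.

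Of the coagulation inhibitors, *Pros1* stood out. It encodes protein S, the cofactor of activated protein C, and was at 27.7, 21.6 and 23.9 FPKM in control eWAT, 10.4, 8.39 and 8.69 in liver and 3.51, 4.48 and 2.82 in muscle (log2 difference 1.36 ± 0.19 (SE), adjusted p = 9.93e-05 for eWAT against liver, but -0.24 with median-ratio scaling). *Proc*, protein C itself, was at 148, 262 and 248 FPKM in liver and 2.01, 2.24 and 0.534 in eWAT, near the liver share. The serpins, which trap clotting proteases, were near it too. *Serpinc1* (antithrombin) was at 56.1, 199 and 180.1 FPKM in liver and 0.839, 1.53 and 0.612 in eWAT. *Serpind1* (heparin cofactor II) was at 26.9, 90.7 and 87.4 FPKM in liver and 0.968, 1.36 and 0.466 in eWAT. *Serpinf2* (the plasmin inhibitor) was at 79.5, 162 and 147 FPKM in liver and 1.18, 3.35 and 0.284 in eWAT. All 25 members near the liver share were lower in eWAT than in liver, with log2 differences from -7.53 to -4.15. The same control values sorted them, so this is a description.

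In control muscle 17 of the 44 members were above the liver share, as were 93.6% of all genes detected in liver and 3.33% of the hepatocyte markers. Of the 17, 12 had a mean of at least 1 FPKM. The limit separates less well in muscle, where the hepatocyte markers spread from 0 to 31.3 times their liver share, against 0.285 to 8.90 in control eWAT. In CON replicate 1, with the smallest share, 11 of the 30 markers were at 0. The highest was *C3* at 21.3, 15.4 and 14.5 FPKM. *C1s1* was at 9.33, 8.55 and 7.09 FPKM, *C1ra* at 3.77, 3.77 and 3.33 and *Cfp* at 5.09, 3.11 and 3.60. *C4b* was at 4.78, 3.54 and 1.76 FPKM, which put it under eWAT in every library (log2 difference 5.88 ± 0.30 (SE), adjusted p = 5.09e-07). Of the terminal pathway, *C8g* was at 2.22, 1.47 and 2.28 FPKM and *C6* at 0.127, 0.0475 and 0.0503 in control muscle. The 27 members not counted above the liver share in muscle had means of 0 to 0.295 FPKM there. In single control libraries they stood at 0 to 68.5 times their liver share.

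The question of the study was how the salt diet changes each tissue. In eWAT most members had lower values in HSD mice, led by the fibrinogen chains and kininogen, and no single difference passed the adjusted threshold. By limma 0 members and 0.0% of the 13740 genes tested were called, and voom on the recovered fragments also called 0 members. At an unadjusted p under 0.05 were 18 of the 32 members tested and 2298 of all genes (16.7%). Of those 32 members 28 were lower and 4 higher, with a median log2 fold change of -0.76 against 0.080 over all genes, of which 40.9% were lower. Some of the 32, among them *Fgb*, *Kng1* and *F2*, passed the filter on low FPKM only through their control values. The counts are therefore a description. Without the filter on low FPKM, 40 of 44 were lower, with a median of -0.71.

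For the 25 members near the liver share in control fat, the summed FPKM was 29.9, 46.1 and 13.5 in the control eWAT libraries, where the liver share gives 24.5, 40.2 and 14.7, and 4.74, 91.3 and 3.34 in the HSD libraries, where it gives 3.33, 1.28 and 1.58. In 18 of the 25 all HSD libraries lay below all controls, and 12.4% of all genes tested did so. In no member did all HSD libraries lie above all controls, as 16.2% of all genes did. The control libraries that sort the members also enter this contrast, and 11 of the 25 did not pass the filter on low FPKM, so the counts are a description. *Fgb* was at 0.192, 0.107 and 0.0602 FPKM in HSD eWAT (log2 fold change -2.54 ± 0.39 (SE), adjusted p = 0.114). *Kng1* was at 0.113, 0.05003 and 0.0941 FPKM (log2 fold change -2.46 ± 0.40 (SE), adjusted p = 0.114). *F10* was at 0.295, 0.238 and 0.252 FPKM (log2 fold change -1.34 ± 0.24 (SE), adjusted p = 0.121). In these 3 genes every HSD value lay far below the lowest control value. *F2* was at 0.0957, 0.0354 and 0 FPKM (log2 fold change -1.91 ± 0.40 (SE), adjusted p = 0.147). *Fgg* was at 0.280, 0.855 and 0 FPKM (log2 fold change -2.38 ± 0.59 (SE), adjusted p = 0.167), with its highest HSD value in replicate 2. *Mbl2* was at 0, 0.0747 and 0.0702 FPKM and *Serpinc1* at 0.163, 0.0190 and 0.134. The values of *F2*, *Fgg*, *Mbl2* and *Serpinc1* did not overlap between the diets.

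**Figure D2:**
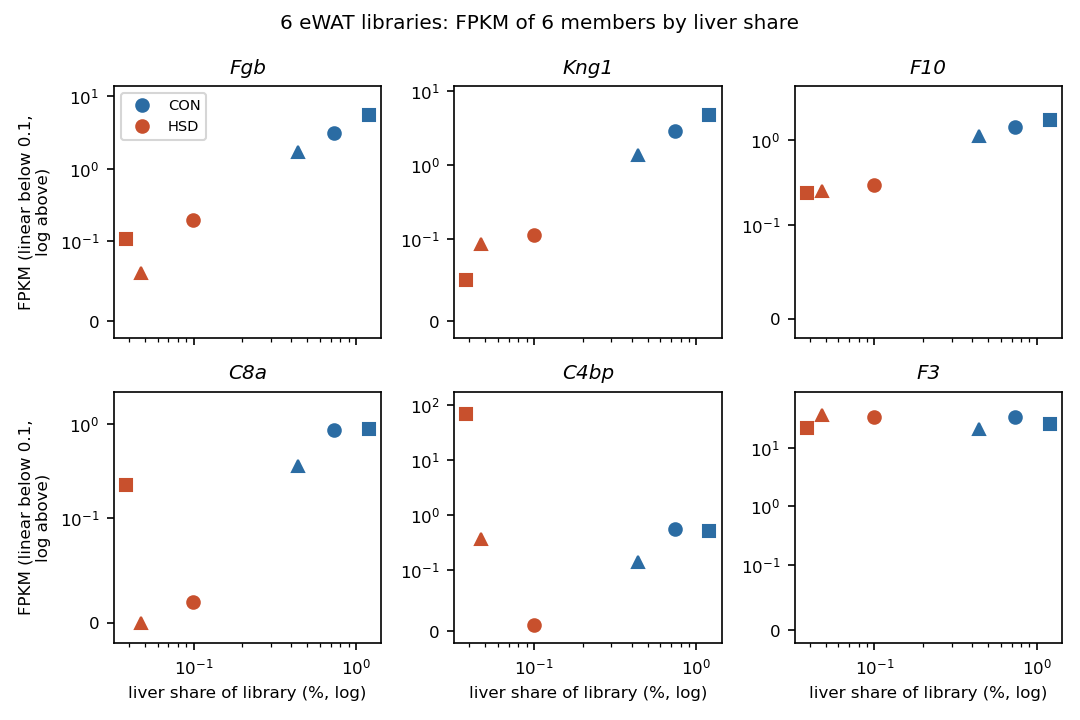
FPKM of 6 members (vertical axis, linear below 0.1 and log above) against the liver share of the 6 eWAT libraries (horizontal axis, %, log scale), blue for CON and orange for HSD, with circle, square and triangle for replicates 1, 2 and 3. *Fgb*, *Kng1*, *F10* and *C8a* are high where the liver share is 0.440% or more, *C4bp* reaches 70.0 FPKM in HSD replicate 2, and *F3* lies between 20.6 and 35.7 FPKM in all libraries.

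The hepatocyte markers moved in the same direction in eWAT: 26 of 26 tested were lower in HSD, with a median of -1.90. In an alternative, the liver share of each library was subtracted from all genes before the test, with values below 0 set to 0. Then 23 members could still be tested and 0 were called, as without the subtraction. *Fgb*, *Kng1*, *F2*, *F10* and *Plg* no longer passed the filter on low FPKM. The count therefore cannot show an effect of the subtraction. Without HSD replicate 2, the library with epididymal RNA, *Fgb*, *Kng1*, *F10*, *Fga* and *Fgg* were called lower (5 members, against 160 of all genes). With all 3 tissues in 1 fit 9 members and 161 of all genes were called.

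Some members near the liver share in control fat were over 3 times the level it gives in HSD fat. *Cfi* was at 1.12, 3.15 and 1.102 FPKM in HSD eWAT, where the liver share gives 0.0318 to 0.0825, and *Proc* was at 1.01, 1.87 and 0.339 FPKM. By the limit used for controls, which was applied to the HSD libraries after the values were seen, 5 members joined the group above the liver share, *Cfi*, *F10*, *F5*, *Masp2* and *Proc*, and *Fga* and *Cfb* left it. The limit separates less well here, since the hepatocyte markers had upper quartiles of 0.191%, 0.186% and 0.136% against medians of 0.0994%, 0.0383% and 0.0474%. *F10* rested on 11, 8 and 9 fragments and *Masp2* on 5, 4 and 9. *C4bp* was at 0.0109, 70.0 and 0.375 FPKM in HSD eWAT and *Serpinf2* at 0.347, 13.05 and 0.230. Both were high in replicate 2 alone, the library whose epididymal markers summed to 17779 FPKM. The part of that tissue in these values was not tested.

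Of the 19 members above the liver share in control eWAT, 18 could be tested and 17 had lower values in HSD. In 8 all HSD libraries lay below all controls, as in 12.4% of all genes tested, and in 0 above, as in 16.2%. Their median log2 fold change was -0.66, and it was -0.59 after subtraction of the liver share. Without HSD replicate 2 the log2 fold changes of *C1ra*, *C1s1* and *Cfp* went from -0.53, -0.60 and -0.57 to -0.13, -0.16 and -0.19. Those of *Pros1*, *C1qa*, *C6* and *F13a1* became -0.11, -0.61, -0.49 and -0.74. *Fga* and *C8g* fell further, to -2.93 and -0.40, and *F3* rose to 0.42. *C1qa* was at 93.6, 48.2 and 71.9 FPKM in HSD eWAT against 127 ± 24.7 (SD, n = 3) in CON, without overlap (log2 fold change -0.86 ± 0.28 (SE), adjusted p = 0.235). *C1qb* was at 81.4, 37.5 and 54.9 FPKM (log2 fold change -0.80 ± 0.30 (SE), adjusted p = 0.269). *C1qc* was at 39.6, 20.7 and 30.3 FPKM (log2 fold change -0.79 ± 0.28 (SE), adjusted p = 0.254). For both, HSD replicate 1 was just above the lowest control. *F13a1* was at 14.5, 4.78 and 11.3 FPKM, below all controls (log2 fold change -1.18 ± 0.43 (SE), adjusted p = 0.265). *C6* was at 20.2, 8.39 and 20.9 FPKM, also below all controls (log2 fold change -0.90 ± 0.35 (SE), adjusted p = 0.285). *Fga*, just above the limit in control fat, was at 0.170, 1.67 and 0.102 FPKM (log2 fold change -2.34 ± 0.65 (SE), adjusted p = 0.193), and *F7*, the next but one by that measure, was at 0.512, 0.262 and 0.370 (log2 fold change -0.72 ± 0.24 (SE), adjusted p = 0.246). *F8* was at 0.651, 0.616 and 0.679 FPKM, close under its controls. None of these passed the adjusted threshold.

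*F3*, *Pros1* and *C3* gave smaller differences in eWAT. *F3* was at 33.4, 21.5 and 35.7 FPKM in HSD eWAT (log2 fold change 0.19 ± 0.25 (SE), adjusted p = 0.681), and *Pros1* at 22.7, 10.8 and 22.1 (log2 fold change -0.45 ± 0.30 (SE), adjusted p = 0.466). *C3* was at 237, 70.9 and 179 FPKM (log2 fold change -0.25 ± 0.47 (SE), adjusted p = 0.776), and its fold change was 0.26 without HSD replicate 2. *C4b* was at 250.3, 72.2 and 118 FPKM in HSD eWAT, with values on both sides of the controls. *C1ra* was at 33.9, 13.6 and 29.8 FPKM, *C1s1* at 68.2, 23.3 and 52.4 and *Cfp* at 30.01, 11.8 and 24.0, and each overlapped its controls. HSD replicate 2 was the lowest of the 6 eWAT libraries for *C3*, *C4b*, *C1ra*, *C1s1*, *Cfp*, *Pros1*, *C6*, *F13a1* and the C1q genes, and it was also the lowest for the adipocyte marker sum. *C2* was at 2.04, 1.13 and 2.23 FPKM and *Masp1* at 0.566, 0.364 and 0.972, both below all controls, while *C8g*, at 2.85, 4.47 and 3.48 FPKM, overlapped.

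In muscle *C1qa* fell with HSD, and it was the only member called of the 12 tested by limma, against 0.323% of all 10834 genes. At an unadjusted p under 0.05 were 5 of the 12 and 16.3% of all genes. *C1qa* went from 12.6, 8.36 and 11.8 FPKM in CON to 4.70, 4.89 and 5.04 in HSD (log2 fold change -1.07 ± 0.15 (SE), adjusted p = 0.0213). The HSD libraries of *C1qa* lay close together and below every control. *C1qb* was at 7.49, 8.07 and 10.4 FPKM in CON and 5.39, 4.25 and 3.85 in HSD, without overlap (log2 fold change -0.87 ± 0.16 (SE), adjusted p = 0.0452), which passed the p threshold but was under 2-fold. *C1qc* was at 5.67, 3.89 and 6.25 FPKM in CON and 2.37, 2.79 and 3.59 in HSD, again without overlap (log2 fold change -0.75 ± 0.19 (SE), adjusted p = 0.104). An exact permutation test of 3 against 3 libraries cannot go below p = 0.1 for any single gene.

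The call for *C1qa* was lost without CON replicate 1 (adjusted p = 0.0756), without CON replicate 3 (0.0920), without HSD replicate 2 (0.0680) and without HSD replicate 3 (0.0758), and its log2 fold change was between -1.24 and -0.96. It was also lost without the filter on low FPKM (adjusted p = 0.0757), with median-ratio scaling (-0.98, thus under 2-fold, adjusted p = 0.0354) and with all tissues in 1 fit (0.614). With the replicate number as a block the adjusted p was 0.0128, and 54 of all genes were called in place of 35. Macrophage markers moved with it: 8 of 10 tested were lower in HSD muscle, 7 of them at an unadjusted p under 0.05, and the sum of all 14 was 43.3 to 78.2 FPKM in CON and 34.3 to 39.5 in HSD. The summed C1q genes were 33.3% to 46.9% of that macrophage sum in CON muscle and 31.5% to 36.4% in HSD muscle. Their part in the result was not tested.

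**Figure D3:**
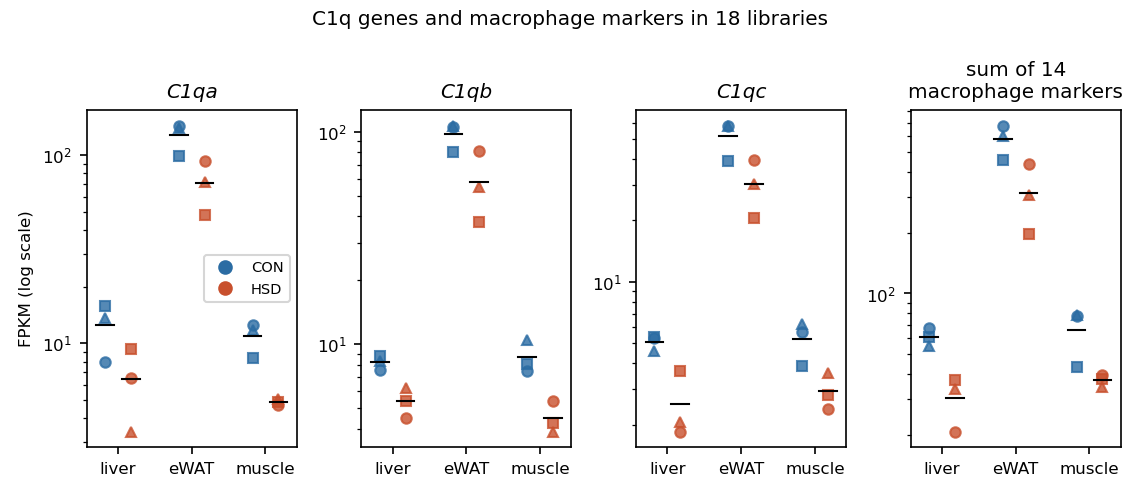
FPKM of *C1qa*, *C1qb* and *C1qc* and the summed FPKM of 14 macrophage markers (vertical axes, log scale) in each library of liver, eWAT and muscle, blue for CON and orange for HSD, with circle, square and triangle for replicates 1, 2 and 3 and a black line at the mean of 3. In muscle all HSD libraries lie below all CON libraries for the 3 genes and for the marker sum.

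The other members gave lower mean values in HSD muscle with no call, so that 12 of 12 tested were lower, as were 60.8% of all genes. Groups did not overlap for 4 of the 12, *F13a1* and the C1q genes, and 15.6% of all genes tested had HSD below CON without overlap (6.72% had HSD above CON, and 0 members). *F13a1* was at 1.96, 1.65 and 1.74 FPKM in CON and 1.34, 0.685 and 1.34 in HSD (log2 fold change -0.52 ± 0.19 (SE), adjusted p = 0.211). *C8g* was at 1.06, 0.980 and 1.57 FPKM in HSD (log2 fold change -0.55 ± 0.19 (SE), adjusted p = 0.19). *C3* was at 21.7, 12.6 and 11.6 FPKM, *C1s1* at 9.34, 6.13 and 7.08 and *Cfp* at 3.85, 2.22 and 2.79. *C4b* was at 1.82, 2.12 and 1.87 FPKM in HSD, and CON replicate 3 lay below all of these values. *Pros1* was at 3.29, 2.84 and 3.02 FPKM, *F3* at 3.27, 2.62 and 2.93 and *C1ra* at 4.13, 3.38 and 2.92. The log2 fold changes of *F3* and *C1ra*, -0.054 and -0.060, turned to 0.021 and 0.017 with median-ratio scaling.

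In liver, their main source, 0 members were called with diet by limma, as were 0.0% of the 10317 genes tested. At an unadjusted p under 0.05 were 5 members and 592 genes (5.74%), and voom on the recovered fragments also called 0 members. Of 41 members tested 33 had higher values in HSD, with a median log2 fold change of 0.54, while 62.7% of all genes did, with a median of 0.13. Hepatocyte markers did the same (29 of 30 higher, median 0.92). *F13b* was at 12.3, 14.5 and 14.3 FPKM in CON and 33.8, 28.8 and 17.7 in HSD (log2 fold change 0.89 ± 0.33 (SE), adjusted p = 0.764). *F5* was at 23.6, 44.2 and 37.8 FPKM in CON and 71.6, 77.9 and 50.4 in HSD (log2 fold change 0.94 ± 0.38 (SE), adjusted p = 0.764). In both genes all HSD libraries lay above all controls, as they did for *C3* and *Klkb1*, 4 members in all, against 8.62% of all genes. *Plg* was at 136, 142 and 61.8 FPKM in HSD liver (log2 fold change 1.17 ± 0.48 (SE), adjusted p = 0.764), where replicate 3 overlapped the controls. *C3* was at 705, 570.4 and 306 FPKM (log2 fold change 0.90 ± 0.47 (SE), adjusted p = 0.764) and *Klkb1* at 55.7, 56.9 and 50.1 (log2 fold change 0.69 ± 0.33 (SE), adjusted p = 0.764).

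**Figure D4:**
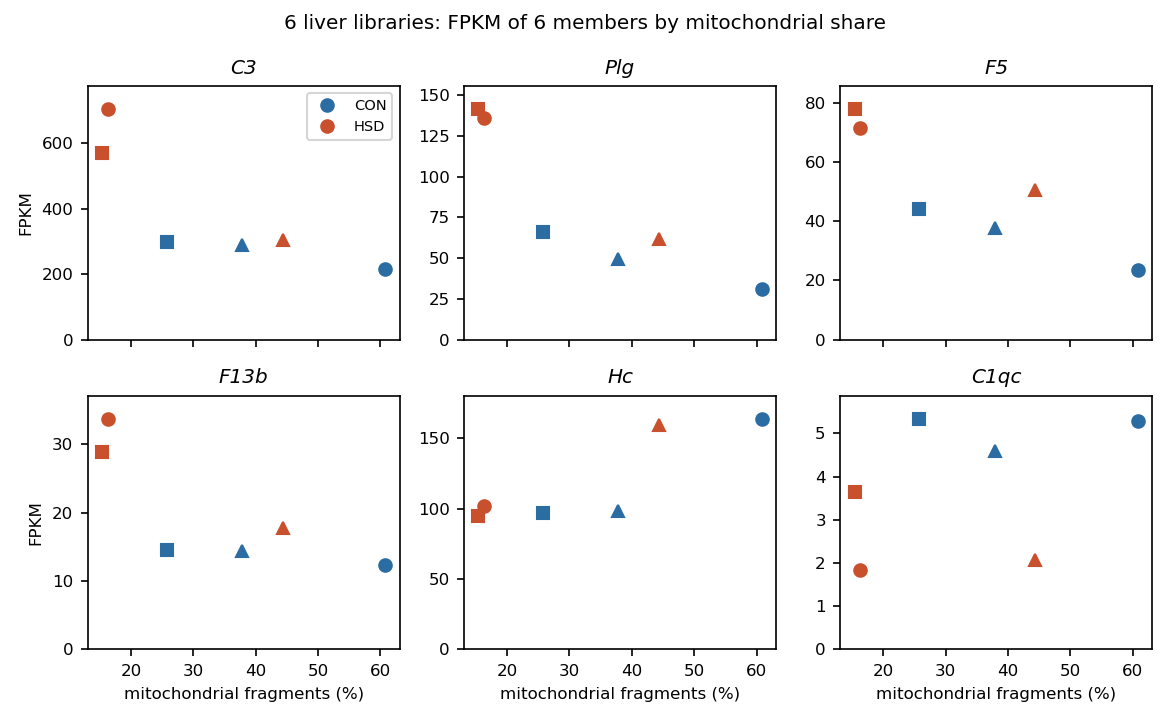
FPKM of 6 members (vertical axes, from 0) against the percent of fragments on mitochondrially encoded genes (horizontal axis) in the 6 liver libraries, blue for CON and orange for HSD, with circle, square and triangle for replicates 1, 2 and 3. *C3*, *Plg*, *F5* and *F13b* are highest in HSD replicates 1 and 2, which have the lowest mitochondrial percentages, and lowest in CON replicate 1 at 60.8%, while *Hc* is highest in that library and *C1qc* is lower in all HSD libraries.

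The mitochondrial percentage moved with these values. It was 60.8%, 25.7% and 37.8% in CON liver and 16.3%, 15.4% and 44.4% in HSD liver. With mitochondrially encoded genes left out, 22 members were higher and 19 lower, with a median of 0.17, and with the percentage as a covariate the median was 0.15. Without CON replicate 1 the median was 0.23. Its part in the higher values was not tested further. The fibrinogen chains in HSD liver were at 493, 418 and 151 FPKM (*Fga*), 963, 982 and 419 FPKM (*Fgb*) and 975, 946 and 326 FPKM (*Fgg*), and HSD replicate 3 lay within the control range for each. *Hc*, *F11*, *C4b*, *Pros1* and *F7* had log2 fold changes between -0.055 and 0.088.

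The C1q genes had lower values in HSD liver too. *C1qc* was at 1.84, 3.64 and 2.06 FPKM in HSD against 5.30, 5.34 and 4.59 in CON (log2 fold change -0.93 ± 0.27 (SE), adjusted p = 0.764, unadjusted p = 0.00959). *C1qb* was at 4.50, 5.40 and 6.24 FPKM in HSD against 7.59, 8.77 and 8.34 in CON (log2 fold change -0.58 ± 0.23 (SE), adjusted p = 0.764). These 2 were the members with HSD below CON without overlap, against 3.47% of all genes. *C1qa* was at 6.55, 9.36 and 3.37 FPKM in HSD liver and overlapped (log2 fold change -0.95 ± 0.42 (SE), adjusted p = 0.764). The macrophage marker sum was 55.1 to 67.1 FPKM in CON liver and 20.6 to 37.1 in HSD liver, and in eWAT it was 460 to 679 in CON and 196 to 437 in HSD. The C1q genes were 45.2% to 50.4% of that sum in CON eWAT and 49.1% to 54.3% in HSD eWAT. The difference between the diet effects in eWAT and liver was 0.09 ± 0.48 (SE) for *C1qa* on the log2 scale, with a limma adjusted p of 0.933.

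Whether diet effects differed between tissues was tested with an interaction term over all 18 libraries. Between eWAT and liver 6 of 42 members were called at an adjusted p under 0.05, against 0.788% of all 13067 genes, and 24 members and 13.7% of all genes were at an unadjusted p under 0.05. All 6 called members were near the liver share in control eWAT. *Plg* gave the smallest adjusted p (log2 difference -2.93 ± 0.46 (SE), adjusted p = 0.00691). *Kng1*, *Fgb* and *F12* followed with differences of -3.08, -3.50 and -1.99 (limma adjusted p = 0.0164, 0.0255 and 0.0302). *C8a* and *F10* gave -1.29 and -1.65 (0.0326 and 0.0439). The interaction fit kept genes by their mean over all 18 libraries, so members low in eWAT entered it through their liver values. *C8a* did not pass the filter in eWAT alone. In HSD mice *F12* was at 0.0374, 0.207 and 0 FPKM in eWAT and 254, 212 and 155 in liver. *C8a* was at 0.0202, 0.224 and 0 FPKM in HSD eWAT and 201, 182 and 199 in HSD liver. *Plg* was at 0.0197, 0 and 0 FPKM in HSD eWAT. For *Kng1* the HSD liver values were 1079, 922 and 777 FPKM, and for *F10* they were 117, 129 and 78.4. In each of the 6 the HSD mean was lower in eWAT and higher in liver, although the liver fold changes of *F10* and *C8a* turned to -0.057 and -0.13 when mitochondrially encoded genes were left out. Of the hepatocyte markers 11 of 30 were called in the same direction, and after subtraction of the liver share, an alternative added after the values were seen, *Plg* alone among the members was called (-2.61, limma adjusted p = 0.0210). Since some mice gave more than 1 tissue, the 18 libraries are not independent. With the mouse as a random block, also added after the values were seen, 6 members and 106 of all genes were called, in place of 6 and 103. The count of 6 depended on single libraries. It was 10 (of 250 genes called) without liver CON replicate 2, 1 (of 39) without liver HSD replicate 1, 2 (of 44) without liver HSD replicate 2 and 19 (of 638) without liver HSD replicate 3. In eWAT it was 2 (of 52) without CON replicate 1, 1 (of 37) without CON replicate 2 and 3 (of 65) without HSD replicate 1.

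By limma 0 members were called between eWAT and muscle (0.0% of all genes), where 13 members and 8.0% of all genes were at an unadjusted p under 0.05. Members low in both of these tissues entered the comparison through their liver values. Between liver and muscle 0 members were called (0.0612% of all genes), with 5 members and 7.95% of all genes at an unadjusted p under 0.05.

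Of 48 other genes of the cascades, chosen as receptors, regulators and further components, 0 were called with diet in any tissue among the 27 tested in liver, 39 in eWAT and 26 in muscle, and 1, 6 and 4 of them had an unadjusted p under 0.05. In eWAT 28 of the 39 were lower. The gene with the highest level was *Cfd*, the fat-derived factor D of the alternative pathway, at 10714, 9353 and 9472 FPKM in control and 14394, 4515 and 15478 in HSD eWAT, where HSD replicate 2 was the lowest. *Thbd*, the endothelial thrombin receptor, was at 151, 157 and 158 FPKM in control and 92.8, 32.7 and 99.97 in HSD eWAT (log2 fold change -1.20 ± 0.43 (SE), adjusted p = 0.263). *Serping1*, the C1 inhibitor, was at 175, 108 and 136 FPKM in control and 129, 65.2 and 114 in HSD eWAT. *Anxa2* and *S100a10*, which bind plasminogen at cell surfaces, were the others with a control eWAT mean above 100 FPKM. *Anxa2* was at 184, 239.6 and 226 FPKM in control and 142, 103 and 124 in HSD eWAT. *S100a10* was at 154, 134 and 147 FPKM in control and 134, 89.8 and 135 in HSD eWAT.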

How the data were processed

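Total RNA was depleted of ribosomal RNA, made into stranded libraries and sequenced. The deposited table holds FPKM values per gene, which the authors made by trimming with cutadapt, aligning with hisat2 to mm10 and quantifying with cuffdiff on an Ensembl annotation, and the submitters' processing notes also name HTSeq 0.9.1 and mm9. The strand setting of the counting is not given in the sources used here, so *Masp2*, *Serpinc1*, *Plg* and *C1s1*, which overlap genes of the other strand, are uncertain, as are members with close copies (*C4b*, *C1ra*, *C1s1*, *Kng1*) and *Cfb*, *C2* and *Klkb1*, which share exons. Whole fragments were recovered from FPKM and exon length (tolerance 0.01 fragments) for 18331 of 18822 genes above 0 and for 43 of 44 members. In a test on simulated data 100% of the values of 18332 genes came back. All columns matched a sample.

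The 44 members, the marker lists and the other pathway genes were chosen with earlier results of these data known. Genes with a mean of at least 0.5 FPKM in the libraries of a fit were tested as log2(FPKM + 0.5) with limma 3.58.1 in R 4.3.3 (trended empirical Bayes), and p-values were adjusted by Benjamini-Hochberg over all genes tested. Fold changes on this scale understate those of low genes. A call needed an adjusted p under 0.05 and a 2-fold difference, or the adjusted p alone for interactions. Diet fits used the 6 libraries of a tissue, control comparisons the 9 control libraries and interactions all 18. All values were given for members called in any comparison, members above the liver share with a mean of at least 1 FPKM and those with the 3 smallest p per tissue, and other members were added by role.

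Alternatives were voom on the recovered fragments, no filter, median-ratio scaling, mitochondrial genes left out or their percentage as a covariate, the liver share subtracted, all tissues in 1 fit, the libraries of the study's quality table, each library left out, and replicate or mouse blocks. Deviations of same-numbered CON and HSD libraries correlated at 0.38, 0.18 and 0.18 in muscle, -0.47, 0.40 and -0.21 in liver, and -0.20, 0.06 and 0.41 in eWAT. The limit used (over 0.1 in every pair) was passed in muscle alone. By the library names same-numbered CON and HSD libraries came from different mice, and these correlations cannot show that the samples were paired. Promoters were from RefSeq (GRCm38.p6) for 35 members. Gene positions were from GENCODE, whose starts can differ, so part of the *C1qc* and *Fga* windows lies inside the gene as positioned there. *Kng1*, *C2*, *Proc*, *Plg*, *Cfb*, *Cfi*, *C1qa*, *C4b* and *Masp1* were not matched. P-values rest on 3 libraries per group.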

Additional observations from a re-analysis of the deposited data

Results flagged for a closer look

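For 6 members the diet effect differed between eWAT and liver by the interaction term (limma, adjusted p under 0.05). Members low in eWAT entered this fit through their liver values. On the log2 scale the difference, eWAT minus liver, was -2.93 for *Plg*, -3.08 for *Kng1*, -3.50 for *Fgb*, -1.99 for *F12*, -1.29 for *C8a* and -1.65 for *F10*. In an alternative chosen after the values were seen, the liver share of each eWAT and muscle library was subtracted, with values below 0 set to 0. The difference for *Plg* was then -2.61 (limma adjusted p = 0.0210). The others were -0.62 for *Kng1*, -1.16 for *Fgb*, -0.67 for *F12*, -0.11 for *C8a* and -1.11 for *F10*, with none of these 5 called. For *Kng1* no eWAT term was left, so its value was the liver fold change of 0.62 with the sign turned. For *F12*, with a liver fold change of 0.64, nearly the same held.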

How the results depend on the processing

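The counts of members called in liver with diet (0), between control eWAT and liver (36) and between control muscle and liver (38) moved by less than 1.5 times under every alternative run. In eWAT the diet count of 0 became 9 with all tissues in 1 fit (161 of all genes) and ranged from 0 to 5 with 1 library left out. In muscle the count of 1 (35 of all genes) became 0 without the filter, with median-ratio scaling and with all tissues in 1 fit (7, 27 and 5 of all genes), and was 0 to 1 with 1 library left out. The eWAT minus liver interaction count of 6 (103 of all genes) became 1 with median-ratio scaling (43), 23 with the libraries of the quality table (3126), 1 with the liver share subtracted (33), and 1 to 19 with 1 library left out. The liver minus muscle count of 0 (8 of all genes) became 5 with the quality table (1802), and the control eWAT against muscle count of 31 (6933) became 19 with median-ratio scaling (4720). The causes were not tested. The members above the liver share were 16 to 20 in eWAT and 16 to 19 in muscle.

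Of 1179 alternatives for 72 single values, 1091 kept direction and call, 58 lost the call, 15 gained it and 15 changed sign. With median-ratio scaling the sign changed for *C2* (-0.89), *C4b* (-1.07) and *Pros1* (-0.24) in control eWAT against liver, and for *C1ra* (0.017) and *F3* (0.021) in muscle with diet. Without mitochondrial genes *C2* and *C4b* both turned to -0.17, and with the liver share subtracted *C8g* in eWAT turned to 0.053. With 1 library left out *C3* in eWAT ranged from -0.61 to 0.26 (the latter without HSD replicate 2), *C1ra* in muscle from -0.18 to 0.043, *F3* in muscle from -0.13 to 0.022 and *C1ra* in control eWAT against liver from -0.25 to 0.13.

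With the replicate block *C1qa* was called in muscle (log2 fold change -1.07, limma adjusted p = 0.0128) and 0 members were called in liver and eWAT. With the mouse as a random block the control counts were 36, 38 and 31, and the interaction counts kept their values. The labels pair no CON mouse with an HSD mouse in any tissue. In liver and eWAT the numbers also did not pass the limit used for pairing. Depth limits the low members, since 1 fragment on a gene of 1 kb was worth 0.0601 to 0.131 FPKM.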
